A study of Mus musculus with 8 samples.

Results

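Gene expression was compared between the skin of CD109-/- and CD109+/+ mice 24 h after 7,12-dimethylbenz[a]anthracene (DMBA), a polycyclic hydrocarbon carcinogen, was applied to the skin. The comparison rests on the 4 arrays that carry DMBA in their titles, 2 of CD109+/+ and 2 of CD109-/- skin, of 8 arrays in the series. All mice were female. By the methods of the study they were of the FVB/N strain, an albino strain prone to skin carcinoma, onto which the CD109 deletion had been backcrossed. The RNA came from whole skin, so epidermis, hair follicles, dermis, fat, the thin muscle under the skin and any infiltrating cells were measured together, and fewer cells of a type and less RNA per cell cannot be told apart. The other 4 arrays, 2 per genotype, were labelled untreated in their titles and acetone-treated in their descriptions, acetone being the solvent of DMBA; they entered no test here and their values are given only beside those of the DMBA arrays. The age of the mice used for the arrays and the number of mice behind an array are not given in the labels, and nothing ties a replicate number to a mouse, so the spread between replicates may be technical in part.

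CD109 is a membrane-anchored glycoprotein of keratinocytes that binds TGF-beta and its receptors and lowers signalling through the Smads. Hair follicles of mouse skin cycle between growth (anagen), regression (catagen) and rest (telogen), and the growth phase is carried by matrix cells that proliferate under Wnt and sonic hedgehog signals, by the inner root sheath that moulds the hair, and by the shaft, which is filled last with hair keratins and the keratin-associated proteins that cross-link them. DMBA is turned into a DNA-reactive metabolite by enzymes under the aryl hydrocarbon (Ah) receptor, and injured skin answers with cytokines from keratinocytes, stress keratins such as Krt6 and Krt16, and the entry of neutrophils and monocytes along chemokine gradients.

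The arrays were 1-colour Agilent mouse arrays on 1 slide. Levels are given as log2 of the deposited intensity minus the log2 of the 75th percentile of the same array, and a difference is the mean over the CD109-/- arrays minus the mean over the CD109+/+ arrays. The 75th percentile intensity was 554 and 626 on the CD109+/+ arrays and 455 and 382 on the CD109-/- arrays, which were thus dimmer, and 556 to 608 on the untreated arrays. Between 63.6% and 67.0% of the probes were well above background on each array, and 0 were saturated. On the slide, the DMBA arrays filled 1 row and the untreated arrays the other, so treatment and row cannot be told apart, and within the DMBA row the 2 CD109+/+ arrays lay next to each other, so genotype and neighbouring position cannot be told apart either.

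Cd109 itself separated the DMBA arrays as their labels say. Its probe was at 0.84 and 1.42 on the CD109+/+ arrays and at -8.06 and -7.70 on the CD109-/- arrays. The CD109-/- arrays were not well above background there, and the signal was at least 117-fold lower (adjusted p = 0.0614). The untreated arrays did not follow their labels at this gene, with 2.06 and -6.49 for the arrays labelled CD109+/+ and 1.66 and -8.11 for those labelled CD109-/-. The genes next to Cd109 on chromosome 9 showed no such gap. Of the 3 nearest genes tested on each side, Slc17a5 had the highest difference, 1.20, and Col12a1 the lowest, -0.88.

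Of 36520 probes tested with limma, 0 passed an adjusted p of 0.05, and 12206 (33.4%) had an unadjusted p under 0.05. The smallest adjusted p was 0.0614, which Cd109 shared with many genes, and 6426 probes had an adjusted p under 0.10, of which 4101 were higher in CD109-/- skin. The methods' t-test called 6895 probes unadjusted and 0 after adjustment. Without CD109-/- replicate 1, 10258 probes passed, and without CD109-/- replicate 2, 261. The differences are therefore given as values and not as passed tests. As a second description, a gene was counted as higher or lower where each CD109-/- array lay at least 1 log2 unit (2-fold) above or below each CD109+/+ array, that is, in 4 of 4 array pairs. Of 16664 named genes, 677 (4.06%) were higher and 675 (4.05%) were lower by this rule, and 5339 (32.0%) had an unadjusted p under 0.05. The higher genes were 50.1% of those counted, 37.3% with quantile normalization and 24.6% with each array centred on its median. Without CD109-/- replicate 1 the counts were 2000 and 1997, and without CD109+/+ replicate 2, 976 and 1109. Groups that merely did not overlap were common, at 35.7% of the genes with CD109-/- skin higher and 36.7% with it lower. The median difference was -0.0008 over genes and 0.11 over all probes, and over probes it was -0.04 with quantile normalization, -0.27 with median centring and 0.22 with a normexp background correction.

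**Figure D1:**
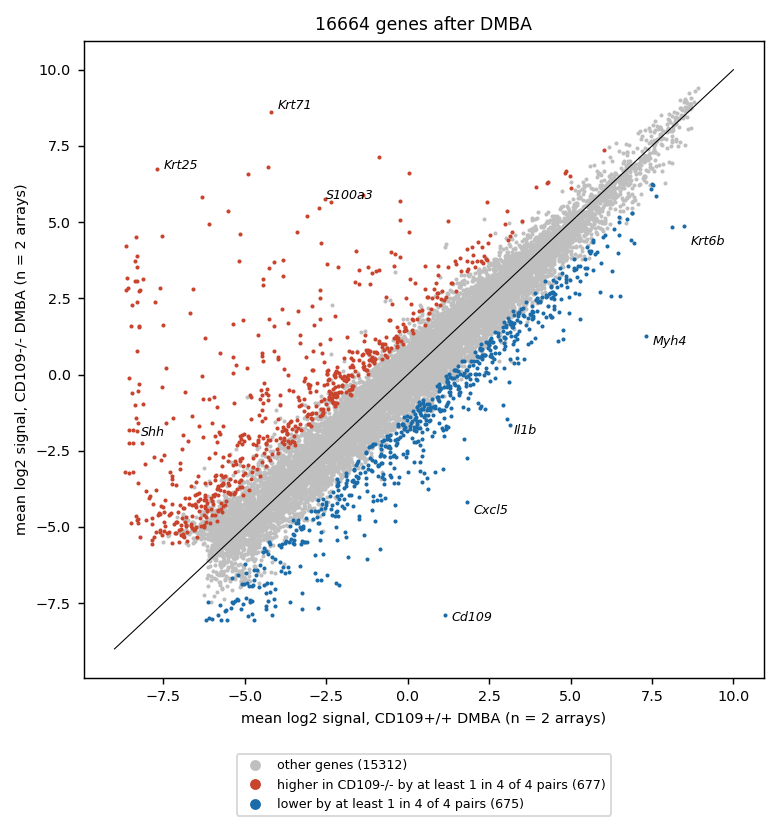
Mean log2 signal of 16664 genes in CD109+/+ (x axis) and CD109-/- (y axis) skin after DMBA, each over 2 arrays and relative to the 75th percentile of the array, with the line of equal signal. Red points are the 677 genes higher and blue points the 675 genes lower by at least 1 log2 unit in 4 of 4 array pairs; points near the lower or left edge, Cd109 and Krt25 among them, have 1 genotype in the background, so their distance from the line has no fixed size.

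The genes counted as higher had a median difference of 2.17 and those counted as lower of -1.88. Where all 4 arrays were well above background, 69 of 481 higher genes and 8 of 558 lower genes differed by 4 or more. In 155 of the higher genes the CD109+/+ arrays were not well above background, and in 78 of the lower genes the CD109-/- arrays were not. Such genes entered the test only through the other genotype, so the filter favoured their direction. The CD109-/- replicates lay more than 2 apart in 122 of the higher genes and in 15 of the lower ones, against 3 and 0 for the CD109+/+ replicates. Over all genes the median SD within a group was 0.0974 in CD109+/+ and 0.2162 in CD109-/- skin. Dim probes leaned to the higher side: of 4 groups of 9130 probes by mean signal, the dimmest had a median difference of 0.43 and the brightest of -0.09. The part of array brightness in this was not tested.

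Growing-follicle genes made up the top of the higher genes. Krt25, a keratin of the inner root sheath, was at -6.95 and -8.44 in CD109+/+ skin, not above background, and at 5.79 and 7.72 in CD109-/- skin, at least 8731-fold higher (adjusted p = 0.0614). Krt71, of the same sheath, had the largest difference among genes well above background on all 4 DMBA arrays, at -4.17 and -4.20 against 7.95 and 9.29 (12.80, SE 0.50). Krt27, their partner in the same sheath, was at -5.13 and -4.66 against 5.62 and 7.57 (11.49, SE 0.72). All 3 genes were bright on both CD109-/- arrays and dim on both CD109+/+ arrays, with no overlap. Trichohyalin (Tchh), which cross-links the sheath, and Padi3, the deiminase that modifies it, differed by 8.02 and 7.57, and Krt75 of the companion layer by 4.86. Of 15 genes tested for the inner root sheath and companion layer, 11 were counted as higher and 0 as lower, 14 had an unadjusted p under 0.05, and the median difference was 7.14, or 5.96 with the 2 genes in the background of CD109+/+ skin at their bounds. Tgm3, which is also made in the interfollicular epidermis, was the only member on the negative side, at 0.43 and 0.47 against 0.05 and 0.12 (-0.36, adjusted p = 0.181).

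Of the 29 genes tested for signals of the hair matrix and dermal papilla, 17 were counted as higher and 1 as lower, 23 had an unadjusted p under 0.05, and the median difference was 2.96. Shh, the hedgehog ligand of the matrix, was at -8.35 and -8.51 in CD109+/+ skin, not above background, and at -1.75 and -1.90 in CD109-/- skin, at least 22.9-fold higher (adjusted p = 0.0614). Genes that hedgehog signalling is known to induce stood beside it. Gli1, its transcription factor, was at 0.12 and 0.03 against 3.24 and 3.05 (3.07, SE 0.16, 8.41-fold). Ptch1, the receptor, was at -3.73 and -4.10 against -0.82 and -0.52 (3.25, SE 0.22, 9.48-fold). Hhip, a decoy for the ligand, was at -2.51 and -2.61 against 0.39 and 0.41 (2.96, SE 0.15, 7.76-fold). These 3 hedgehog targets thus differed by 2.96 to 3.25, each with replicates close together. On the Wnt side, Rspo2, a dermal papilla enhancer of Wnt signalling, was at least 10.6-fold higher, the ligands Wnt10b and Wnt11 differed by 3.75 and 2.61, and Lef1, the transcription factor of the pathway in the matrix, by 4.91 (-1.58 and -1.38 against 2.62 and 4.24). The ligand Wnt10a (0.11) and the enhancers Rspo1 (-0.25) and Rspo4 (0.13) were not counted. Matrix transcription factors Dlx2 (5.90), Dlx4 (5.09), Msx2 (4.67) and Mycn (4.62) and the dermal papilla protease Corin (at least 12.4-fold) were higher as well, whereas the papilla genes Alpl (-0.28) and Vcan (0.08) were not counted.

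Not all signals of this compartment went the same way. Fgf7, a dermal papilla growth factor, was counted as lower (-1.38, SE 0.21, adjusted p = 0.0735), and Fgf10 was -0.89. Fgf5, which ends the growth phase, was at -5.63 and -5.00 against -2.34 and 0.49 (4.39, SE 1.03), with the CD109-/- replicates far apart. Genes of the resting follicle and bulge were mixed. Grem1, a BMP antagonist, was at 1.31 and 1.35 against -0.89 and -1.28 (-2.42, SE 0.20, adjusted p = 0.0625), and Fgf18, which holds the follicle at rest, at -0.02 and 0.48 against -1.32 and -1.26 (-1.52). Lhx2 (2.76), Tcf7l2 (2.00) and Sox9 (1.64), stem cell and progenitor factors, were higher. In all 5 of 20 bulge genes were counted as higher and 2 as lower, and their median difference, 0.29, changed sign with quantile normalization (-0.07) and with median centring (-0.09).

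Hair shaft genes were higher too, but there the CD109-/- replicates stood far apart. Krt35, the keratin that fills the shaft first, was at -4.55 and -4.01 against 5.86 and 7.73 (11.07, SE 0.70). Krt33b, a keratin of the later cortex, was at -8.59 and -8.72 against 1.25 and 7.20, at least 1520-fold higher (adjusted p = 0.0746). Krtap3-1, a keratin-associated protein of the cortex, was at -8.30 and -8.43 against 0.51 and 6.95, at least 1074-fold higher (adjusted p = 0.0789). CD109+/+ skin was not above background for either of the last 2 genes. In these later genes replicate 2 of CD109-/- skin far exceeded replicate 1, while both exceeded both CD109+/+ arrays. Over the lists, the median gap of replicate 2 over replicate 1 was 6.45 in 47 keratin-associated proteins, 5.07 in 13 shaft keratins, 2.71 in 17 other shaft and cuticle genes, 1.93 in the inner root sheath and 0.32 in the matrix and papilla list; over the same lists the CD109+/+ replicates differed by -0.13 to 0.04. Replicate 2 was the higher in 47 of 47 keratin-associated proteins and in 13 of 13 shaft keratins.

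**Figure D2:**
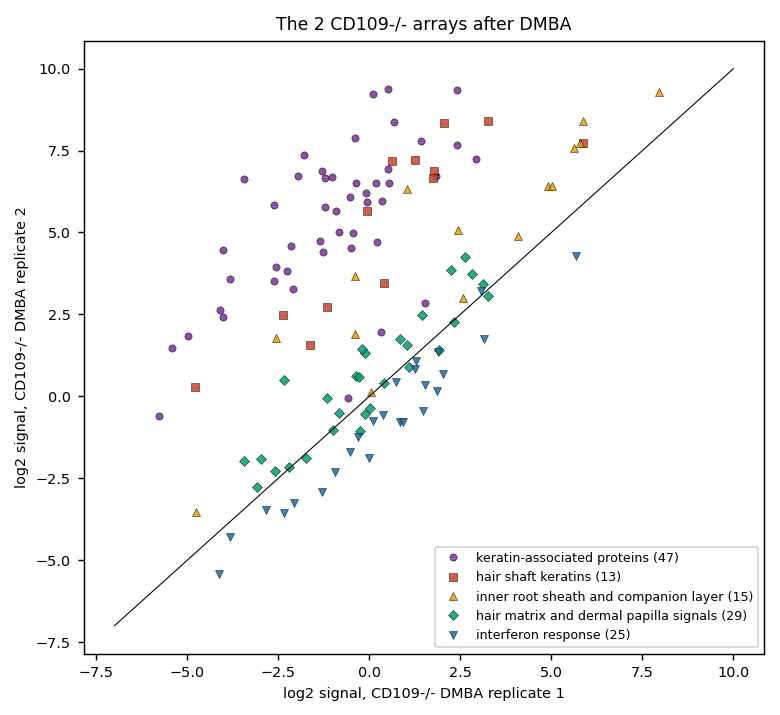
Log2 signal of 5 gene lists on the 2 CD109-/- DMBA arrays, replicate 1 on the x axis and replicate 2 on the y axis, 1 point per gene, with the line of equal signal. Keratin-associated proteins and shaft keratins lie far above the line (median gaps 6.45 and 5.07), matrix and dermal papilla signals near it (0.32), and interferon response genes below it (-1.18).

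Of the keratin-associated proteins 38 of 47 were counted as higher and 26 of 47 had an unadjusted p under 0.05, against 11 of 13 and 11 of 13 for the shaft keratins, and medians were 7.43 and 6.98. With the 23 keratin-associated proteins and 4 shaft keratins in the background of CD109+/+ skin at their bounds, the medians were 7.11 and 6.98. These background genes entered the test only through CD109-/- skin, so the filter favoured their direction. Their share of the counts and p-values is therefore no separate support. Among other shaft and cuticle genes, 13 of 17 were counted as higher. They included S100a3, a calcium-binding protein of the cuticle (8.17, SE 1.04, adjusted p = 0.0684), Hoxc13, the factor that drives hair keratin genes (5.19), Dsg4, the desmosomal cadherin of the shaft (at least 40.7-fold), Lrrc15 (4.10) and Foxn1 (2.66, adjusted p = 0.143). Several genes with only a Gm number as a name were also far higher, such as Gm10229 (at least 1881-fold) and Gm11567 (at least 934-fold), neither above background in CD109+/+ skin. Their family was not looked up here, so they are not shown to be apart from the lists above. Probes for keratin-associated proteins may bind RNA of near-identical family members, so the values of single members of that family are uncertain.

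Melanocyte genes were higher as well. Dct, dopachrome tautomerase, was at 2.32 and 2.57 against 5.47 and 5.82 (3.20, SE 0.21, adjusted p = 0.0614, 9.18-fold), and Tyrp1 at 0.38 and 0.69 against 3.43 and 3.66 (3.01, SE 0.20). Pmel, the fibril protein of the pigment granule, differed by 4.11 and Mlana by 4.55. Oca2, a melanosome transporter, was not above background in CD109+/+ skin and at least 30.5-fold higher in CD109-/- skin. The lineage factor Sox10 differed far less, by 0.53 (adjusted p = 0.148). Of 18 melanocyte genes 12 were counted as higher and 0 as lower, with a median of 3.11.

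The untreated arrays give the scale of these follicle levels. The mean level of the inner root sheath list was -2.84 and -2.94 in CD109+/+ and 2.48 and 4.60 in CD109-/- skin after DMBA, and it was -2.49 and 4.47 on the untreated arrays labelled CD109+/+ and -2.49 and 3.91 on those labelled CD109-/-. The keratin-associated proteins were at -5.24 and -5.23, and at -1.06 and 5.33, after DMBA, and at -4.84, 4.01, -4.95 and 1.75 on the untreated arrays in the same order. On all 8 arrays the follicle lists were thus low where Cd109 was well above background and high where it was not, whatever the label. CD109-/- replicate 2 after DMBA was above the highest untreated array for both lists, at 4.60 against 4.47 and at 5.33 against 4.01. Replicate 1 lay between the low and the high untreated arrays. Among the 677 genes counted as higher, both CD109+/+ arrays lay below all 4 untreated arrays in 325 (48.0%). Both CD109-/- arrays lay above all 4 in 212 (31.3%). These genes were picked for low CD109+/+ and high CD109-/- signal, which favours such placement. The shares of all genes, 17.2% and 14.2%, are therefore no baseline for them. The part of the hair cycle in the genotype difference was not tested.

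**Figure D3:**
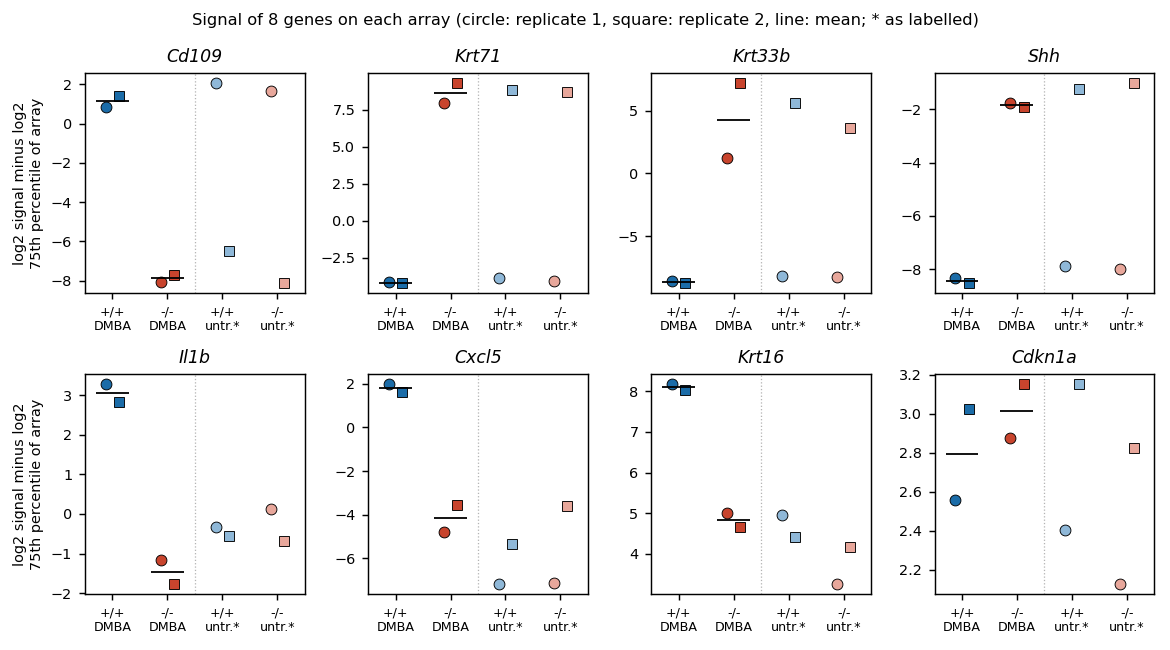
Log2 signal, relative to the 75th percentile of the array, of 8 genes on each of the 8 arrays; circles are replicate 1, squares replicate 2, and black lines the means of the DMBA groups (n = 2 arrays). After DMBA, Krt71, Krt33b and Shh are high only in CD109-/- skin and Il1b, Cxcl5 and Krt16 only in CD109+/+ skin, while Cdkn1a overlaps; on the untreated arrays Krt71, Krt33b and Shh are high on the array of each label where Cd109 is low.

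Inflammatory genes stood at the other end. Il1b, the cytokine that keratinocytes and myeloid cells release on injury, was at 3.28 and 2.84 in CD109+/+ skin and at -1.17 and -1.76 in CD109-/- skin, 23.1-fold lower (-4.53, SE 0.30, adjusted p = 0.0614). The untreated arrays were at -0.32, -0.57, 0.14 and -0.67, so both CD109+/+ arrays after DMBA lay above all 4 and both CD109-/- arrays below all 4. Il19 was at 0.72 and 0.53 against -3.26 and -4.22 (-4.37, SE 0.38). Ptgs2, the inducible cyclooxygenase, was at -0.60 and -1.04 against -4.25 and -4.00 (-3.31, SE 0.23), and Il6 at -0.23 and -0.63 against -3.21 and -3.89 (-3.12, SE 0.32). Il33 (-2.55) and Osm (-1.71) were lower as well, and Csf3, not above background in CD109-/- skin, was at least 2.93-fold lower. Tnf did not separate in this way, at -1.39 and -1.56 against -1.71 and -2.38 (-0.57, adjusted p = 0.231), nor did Csf2, at -3.43 and -2.77 against -2.78 and -4.24 (-0.41, adjusted p = 0.637). Of 25 cytokine genes 9 were counted as lower and 1 as higher, and the median was -0.81.

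The 1 cytokine counted as higher was Il17a, a product of type 17 T cells. It was at -7.57 and -7.42 in CD109+/+ skin, not above background, and at -1.39 and -3.88 in CD109-/- skin, at least 13.0-fold higher (adjusted p = 0.0782). The untreated arrays were at -7.21, -3.17, -6.39 and -4.14, high on the same arrays as the follicle genes. Il17f differed by 2.68 and S100a7a, a psoriasis-associated antimicrobial protein, by 3.79 (at -5.13 and -6.39 against -3.37 and -0.56, adjusted p = 0.113). Of the 24 genes of the psoriasis-associated list, these 3 were counted as higher and 6 as lower, 7 differences were positive and 17 negative, and the median was -0.64.

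Chemokines had 1 of the lowest medians of the lists, -1.78, with 16 of 29 genes counted as lower and 0 as higher. Cxcl5, a neutrophil attractant from epithelium, was at 1.98 and 1.63 against -4.78 and -3.56, 62.9-fold lower (-5.98, SE 0.47, adjusted p = 0.0614). Cxcl3 was at least 11.6-fold lower (-1.89 and -2.52 against -6.14 and -7.52), and Cxcl2 was at 0.06 and -0.85 against -3.90 and -5.70 (-4.40, SE 0.73, adjusted p = 0.0751). Among ligands of monocytes and T cells, Ccl4 differed by -4.56, Ccl3 by -3.97, Ccl2 by -3.07, Ccl7 by -2.72 and Ccl17 by -2.70. Ppbp, a platelet and myeloid chemokine, differed by -3.71. Cxcl1, closely related to Cxcl2 and Cxcl3, differed by -0.72 (-0.76 and -1.16 against -1.94 and -1.42, adjusted p = 0.163). Both CD109+/+ arrays exceeded all 4 untreated arrays in 14 of 29 chemokines (48.3%, against 18.5% of all genes), and both CD109-/- arrays lay below all 4 in 4 of 29 (13.8%, against 12.3%).

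**Figure D4:**
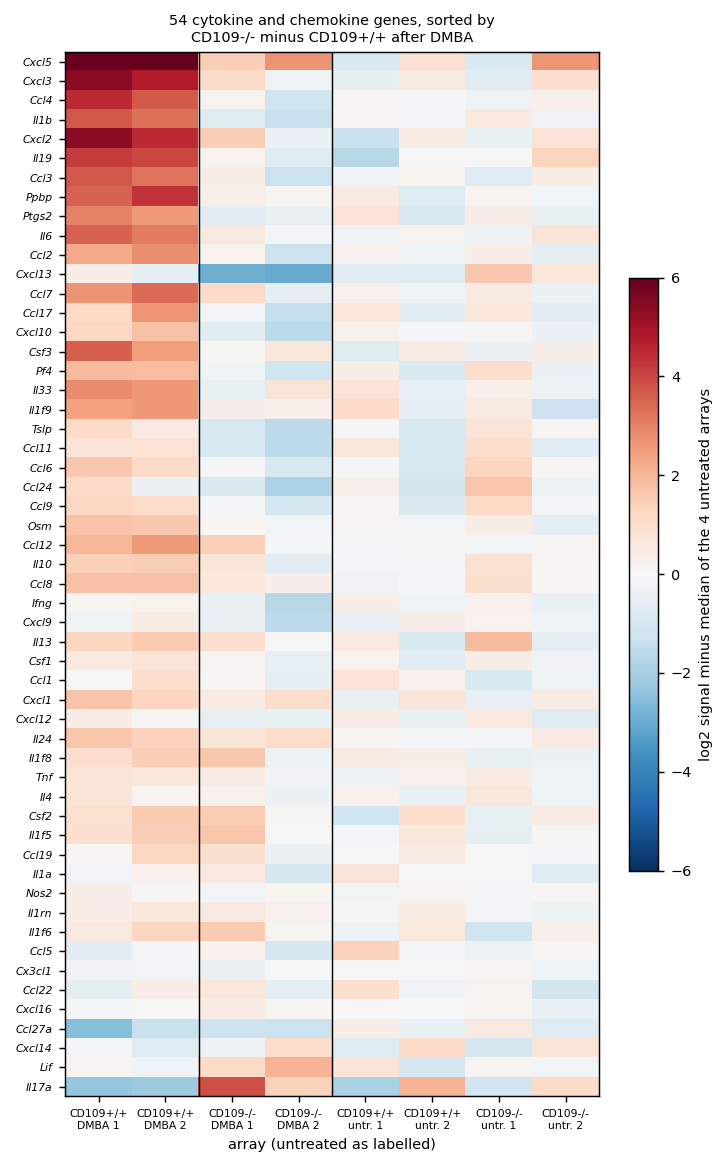
Log2 signal of 54 cytokine and chemokine genes on the 8 arrays, each minus the median of the 4 untreated arrays (colour scale from -6 to 6, larger values at the end colours), with genes sorted by CD109-/- minus CD109+/+ after DMBA. The top rows, Cxcl5, Cxcl3, Ccl4, Il1b and Cxcl2, are far above the untreated level in the 2 left columns (CD109+/+ after DMBA) and less far from it in the CD109-/- columns; Il17a is the bottom row.

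Of 29 neutrophil genes, 14 were counted as lower and 1 as higher, with a median of -1.62. Both CD109+/+ arrays lay above all 4 untreated arrays in 21 of 29 (72.4%, against 18.5% of all genes). Both CD109-/- arrays did so in 10 of 29 (34.5%, against 14.2%), Stfa2 among them. Both CD109-/- arrays lay below all 4 in 3 of 29 (10.3%, against 12.3%). Clec4d, a C-type lectin of myeloid cells, was at 3.37 and 2.91 against -1.42 and -1.86, 27.6-fold lower (-4.78, SE 0.27, adjusted p = 0.0614). Cxcr2, the receptor of Cxcl2, Cxcl3 and Cxcl5, was at 0.66 and 0.29 against -2.33 and -2.65 (-2.97, SE 0.23). Prok2 (at least 7.97-fold), Retnlg (-4.18), Clec4e (-3.99), Stfa2 (-3.68) and Mmp8 (-2.57) were lower too. The gene counted as higher was Padi4, a deiminase of neutrophils, at -0.68 and -0.68 against 0.75 and 1.74 (1.93, adjusted p = 0.0807), and the receptor Csf3r differed by 0.66; in all, 6 of the 29 differences were positive. S100a8 and S100a9, which neutrophils and stressed keratinocytes both make, were not among the genes counted, since CD109-/- replicate 1 lay within the range of CD109+/+ skin, S100a8 at 6.37 and 5.52 against 6.06 and 3.94 (-0.95) and S100a9 at 7.83 and 7.06 against 7.42 and 4.98 (-1.24).

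Macrophage and monocyte genes were counted as lower in 16 of 25 cases and as higher in 0, and 22 had an unadjusted p under 0.05. Cd163, a scavenger receptor of resident macrophages, was at -0.50 and -0.61 against -2.63 and -2.77 (-2.15, SE 0.16, adjusted p = 0.0614, 4.42-fold lower). Cd14 (-2.88), Cd68 (-2.46), Trem2 (-1.77), Adgre1 (-1.71) and Csf1r (-1.48) were lower, and so was Acod1, an enzyme of activated macrophages (-3.91). The untreated arrays overlapped more here: for Cd163 they were at -1.25, -2.04, -0.56 and -1.44, so the CD109+/+ arrays after DMBA matched the highest of them and the CD109-/- arrays lay below all 4. In the list, both CD109+/+ arrays exceeded all untreated arrays in 9 of 25 genes (36.0%, against 18.5% of all genes). Both CD109-/- arrays lay below all of them in 7 of 25 (28.0%, against 12.3%).

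Of 17 genes of mast cells and histamine, 3 were counted as lower and 1 as higher, with a median of -0.85. Hdc, the enzyme that makes histamine, was at 3.21 and 2.73 against 0.17 and 0.25 (-2.76, SE 0.23, adjusted p = 0.0625, 6.76-fold lower), and Mcpt8, a basophil protease, was at least 12.4-fold lower. The connective tissue mast cell proteases differed less, Cpa3 by -1.25, Tpsb2 by -1.21 and Mcpt4 by -0.69, none of them counted. Kit, the receptor of mast cells and melanocytes, was the gene counted as higher, at -0.93 and -0.64 against 0.54 and 1.26 (1.68, adjusted p = 0.0785). Tpsab1 and Il20 were too dim on the DMBA arrays to be tested. Of 19 T cell genes 1 was counted as lower (Gzmb, -2.61, adjusted p = 0.0765) and 0 as higher. Of 15 genes of Langerhans cells and MHC class II 0 were counted in either direction. An unadjusted p was under 0.05 in 3 of 19 and 2 of 15, against 32.0% of all genes. In both lists CD109-/- replicate 2 lay below replicate 1, by a median of 1.04 and 1.06.

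The 25 interferon response genes were lower in CD109-/- skin without exception, with groups that did not overlap in 25 of 25 (36.7% of all genes), 13 counted as lower, 24 with an unadjusted p under 0.05 and a median of -1.73. Rtp4 was at 3.55 and 3.86 against 1.85 and 0.18 (-2.70, SE 0.62), and Cxcl10, an interferon-induced chemokine, at 1.61 and 2.12 against -0.31 and -1.25 (-2.65, SE 0.40, adjusted p = 0.0733). Ifit1, an RNA sensor, was at 0.18 and 0.71 against -1.29 and -2.91 (-2.54, SE 0.62), and Irf7 at 0.48 and 0.82 against -0.53 and -1.69 (-1.76). The mean level of the list was 1.37 and 1.63 in CD109+/+ and 0.31 and -0.77 in CD109-/- skin after DMBA. On the untreated arrays it was 0.84 and 0.17 for those labelled CD109+/+ and 2.16 and 0.50 for those labelled CD109-/-. By this mean, CD109+/+ skin after DMBA lay below only the highest untreated array, labelled CD109-/- replicate 1. Replicate 1 of CD109-/- skin after DMBA lay within the untreated range, and replicate 2 below it. Both CD109+/+ arrays exceeded all untreated arrays in 1 of 25 genes, while both CD109-/- arrays lay below all of them in 12 of 25 (48.0%, against 12.3% of all genes). Replicate 2 of CD109-/- skin was below replicate 1 by a median of 1.18.

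Of 25 genes of activated epidermis, 10 were counted as lower and 0 as higher, 8 differences were positive, and the median was -0.79. The CD109-/- replicates lay more than 2 apart in 6 of the 25. Krt6b was at 8.58 and 8.38 in CD109+/+ skin and 4.80 and 4.91 in CD109-/- skin, 12.3-fold lower (-3.62, SE 0.17, adjusted p = 0.0614). Krt16, its partner in activated keratinocytes, was at 8.18 and 8.04 against 5.01 and 4.66, 9.67-fold lower (-3.27, SE 0.20), and Krt6a differed by -3.19 and Sprr1b, a cornified envelope precursor, by -2.89. In these 4 genes both CD109+/+ arrays lay above all untreated arrays. Krt17, which is made in activated epidermis and in hair follicles alike, was at 6.35 and 6.64 against 7.24 and 7.46 (0.85). The normal differentiation programme differed little, with 1 of 44 genes counted as higher (Casp14, 1.38) and 3 as lower, all of the Lce3 family that injury induces (Lce3d, -2.41). Of the basal layer, Krt14 was at 7.52 and 7.42 against 6.32 and 5.88 (-1.37, adjusted p = 0.0739) and Cdh3, P-cadherin, which the hair matrix also makes, was higher by 1.88.

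Matrix-degrading enzymes and their inhibitor Timp1 were lower. Timp1 was at 5.09 and 4.82 against 1.96 and 2.05 (-2.95, SE 0.18, adjusted p = 0.0614, 7.72-fold lower), with the untreated arrays at 0.62 to 1.79. Mmp13, a collagenase, was at -0.77 and -1.27 against -4.89 and -4.69 (-3.77, SE 0.24, 13.7-fold lower). Mmp10, stromelysin 2 of migrating keratinocytes, was at -2.61 and -3.90 against -7.85 and -7.54, at least 5.59-fold lower. Mmp3 (-2.57), Mmp9 (-3.13), Mmp12 (-2.07) and Mmp8 were lower as well. Of 22 metalloproteinase and inhibitor genes 10 were counted as lower and 1 as higher, the protease Adamts18 at 4.07, with a median of -1.38, or -1.09 with the 2 genes in the background of CD109-/- skin at their bounds. Over all 675 genes counted as lower, both CD109+/+ arrays exceeded all 4 untreated arrays in 389 (57.6%). Both CD109-/- arrays lay below all 4 in 215 (31.9%). These genes were picked for high CD109+/+ and low CD109-/- signal, so the shares of all genes, 18.5% and 12.3%, are no baseline for them.

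**Figure D5:**
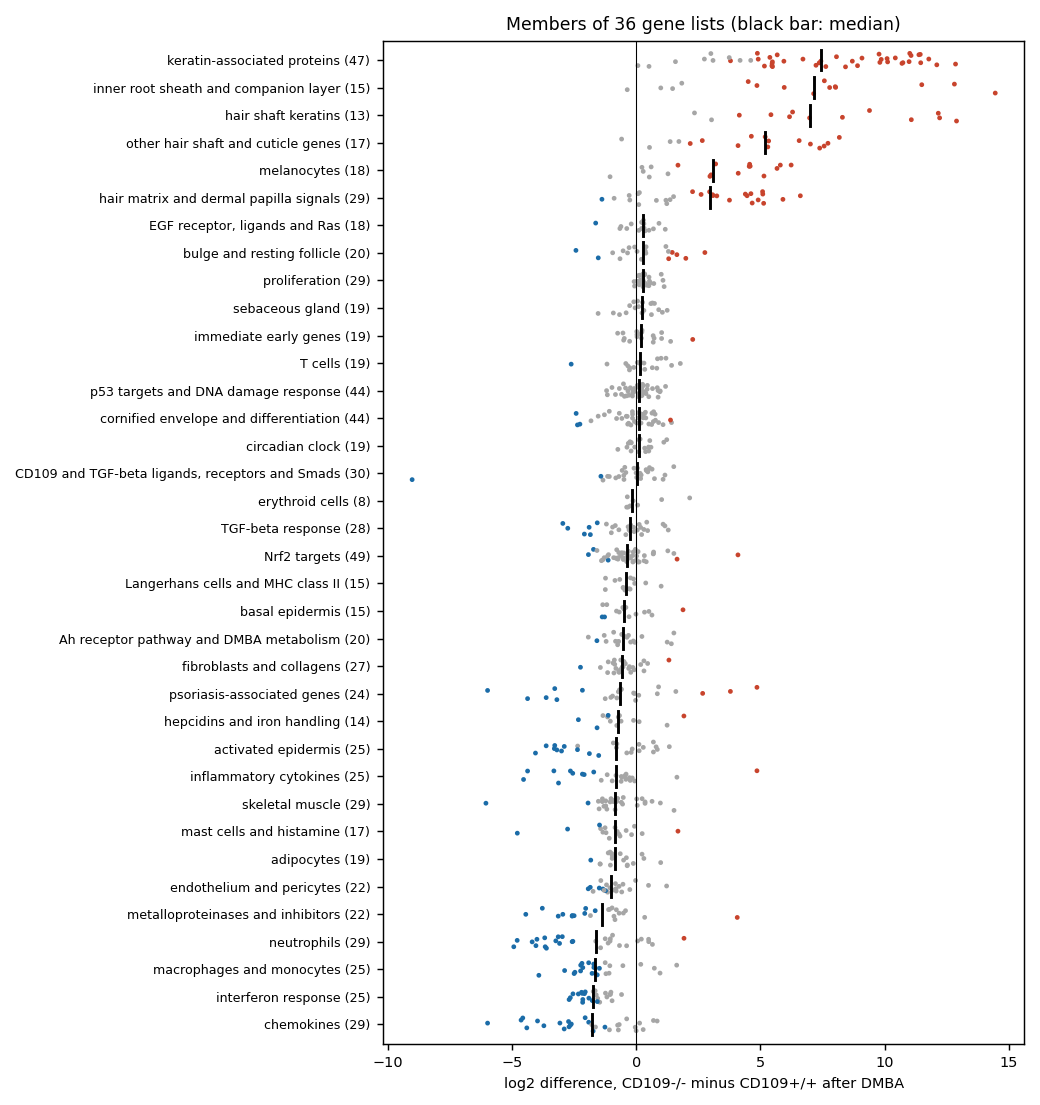
Log2 difference, CD109-/- minus CD109+/+ after DMBA, of each tested member of 36 gene lists (number of members in brackets), sorted by the list median (black bar); red and blue points are members higher or lower by at least 1 in 4 of 4 array pairs. Melanocyte genes and the hair follicle lists other than the bulge have medians from 2.96 to 7.43 and lie apart at the top; chemokines, interferon response, macrophages and neutrophils lie at the bottom with medians from -1.78 to -1.62.

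Promoters of a few of these genes, chosen because they carry a motif, are shown to give the motifs in their place; many members of the same lists do not carry them. The sequences are those of RefSeq on build GRCm38.p6, the 120 bases before the annotated start of the gene, written along the strand of the gene with matches in capitals. The first pair, of the inner root sheath, carries the TATA box core TATAAA, which 57.1% of the promoters of that list, 6 of 8 of those of shaft keratins and 81.0% of those of keratin-associated proteins held in the 250 bases before the start, on either strand, against 13.0% of all 27025 promoters and 8.98% of the 13178 of tested genes.
Krt25, chr11:99322952-99323071, minus strand: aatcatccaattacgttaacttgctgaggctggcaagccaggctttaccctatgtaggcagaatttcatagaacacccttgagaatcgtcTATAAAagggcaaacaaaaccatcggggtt
Krt71, chr15:101743098-101743217, minus strand: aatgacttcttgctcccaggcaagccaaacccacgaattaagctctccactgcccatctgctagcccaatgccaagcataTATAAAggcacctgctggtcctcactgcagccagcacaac
The TATA box core began 30 bases before the start in Krt25 and 40 in Krt71. It was not particular to the higher side, as 20.0% of the promoters of genes counted as higher and 16.9% of those counted as lower held it, and 77.8% of those of activated epidermis did.

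The next set shows genes of the lower side. Mmp10 and Mmp13 carry the AP-1 motif TGANTCA beside a TATA box core. Cxcl2 and Cxcl3 carry the NF-kB motif, GGGA and TTTCC with 1 free base between them, and Ifit1 has the interferon response element, TTTC and TTTC with 2 free bases between them, at 2 places. Il1b shows a TATA box core alone in this window.
Il1b, chr2:129371140-129371259, minus strand: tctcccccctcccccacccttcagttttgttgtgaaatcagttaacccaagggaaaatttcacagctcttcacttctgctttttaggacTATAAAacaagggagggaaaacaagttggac
Mmp10, chr9:7502222-7502341, plus strand: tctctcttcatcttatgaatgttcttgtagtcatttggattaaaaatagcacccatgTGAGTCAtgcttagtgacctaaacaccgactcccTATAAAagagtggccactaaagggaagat
Mmp13, chr9:7272394-7272513, plus strand: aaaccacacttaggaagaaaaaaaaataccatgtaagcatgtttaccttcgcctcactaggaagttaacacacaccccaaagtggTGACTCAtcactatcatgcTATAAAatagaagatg
Cxcl2, chr5:90903779-90903898, plus strand: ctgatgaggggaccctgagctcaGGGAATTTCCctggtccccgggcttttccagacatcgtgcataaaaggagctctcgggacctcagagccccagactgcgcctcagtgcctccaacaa
Cxcl3, chr5:90785981-90786100, plus strand: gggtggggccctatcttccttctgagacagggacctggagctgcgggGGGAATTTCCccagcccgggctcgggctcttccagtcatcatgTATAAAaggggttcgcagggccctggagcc
Ifit1, chr19:34640769-34640888, plus strand: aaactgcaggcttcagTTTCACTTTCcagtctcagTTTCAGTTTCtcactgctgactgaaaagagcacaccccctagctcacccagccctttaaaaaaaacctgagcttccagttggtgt
The AP-1 motif began 63 bases before the start in Mmp10 and 35 in Mmp13, the NF-kB motif 97 in Cxcl2 and 73 in Cxcl3, and the interferon response elements 104 and 85 in Ifit1.

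Counted over the 250 bases before the start and both strands, the AP-1 motif stood in 6.87% of all promoters, in 5.33% of those of tested genes, in 7.68% of the 534 matched promoters of genes counted as higher, in 11.4% of the 498 of genes counted as lower, in 13 of 18 promoters of activated epidermis (72.2%) and in 5 of 17 of metalloproteinases and inhibitors (29.4%). The interferon response element stood in 3.04% of all promoters, in 2.78% of those of tested genes, in 2.81% and 9.64% of those of higher and lower genes, and in 11 of 19 promoters of the interferon list (57.9%). The NF-kB motif was rare, in 0.337% of all promoters, 0.379% of those of tested genes, 0.749% and 1.20% of those of higher and lower genes, and 3 of 21 of those of chemokines (14.3%). The Wnt factor motif ATCAAAG stood in 3.23% of all promoters, in 2.47% of those of tested genes and in 3.56% and 4.02% of those of higher and lower genes. The antioxidant response core, TGA and GCA with 4 free bases between them, stood in 10.8%, 9.48%, 10.5% and 15.1% in the same order. These are matches of letters and not shown sites of binding.

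Members of the pathway of CD109 itself went both ways at the RNA level. Of 30 genes for CD109, TGF-beta ligands, receptors and Smads, 2 were counted as lower and 0 as higher. The 2 were Cd109 and Lrrc32, which tethers latent TGF-beta to the cell surface (3.22 and 2.84 against 1.77 and 1.46, -1.42, adjusted p = 0.0739). Groups did not overlap in 13 of 30 with CD109-/- skin higher (35.7% of all genes) and in 12 with it lower (36.7%). The ligand Tgfb1 was at 0.24 and 0.35 against -0.59 and -1.12 (-1.15, SE 0.24, adjusted p = 0.0832). The receptor Tgfbr2 was at 5.21 and 5.09 against 4.25 and 3.38 (-1.33, adjusted p = 0.099), and Tgfbr3 differed by -1.08. Smad7, the inhibitory Smad that the pathway induces, was at -1.10 and -1.08 against -0.58 and 0.72 (1.16, adjusted p = 0.181). Of 28 response genes 6 were counted as lower and 0 as higher, with a median of -0.26. They included Timp1, the matrix protein Tnc (-2.75), Plaur (-2.08), Igfbp3 (-1.89, at 0.84 and 0.86 against -0.89 and -1.19) and Tgfbi (-1.56), several of which are also induced in wounds.

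Counts for genes of the response to DMBA stand beside shares of 4.06% higher and 4.05% lower over all genes. In the Ah receptor pathway 0 of 20 genes were counted as higher and 1 as lower, Gstt1, a glutathione transferase (-1.58), with a median of -0.54. This list leaned to the lower side, with 16 of 20 differences negative and a range from -1.92 to 1.52. Groups did not overlap in 11 genes with CD109-/- skin lower (36.7% of all genes) and in 4 with it higher (35.7%). An unadjusted p was under 0.05 in 9 of 20, against 32.0% of all genes. Cyp1b1, an enzyme that activates DMBA in skin, was at 1.37 and 1.79 against 0.78 and 0.72 (-0.83, adjusted p = 0.0981), Ephx2 at 2.01 and 1.93 against 0.99 and 0.54 (-1.21, adjusted p = 0.0781) and Cyp2b19, an epidermal cytochrome, higher by 1.25. Of 44 p53 targets and DNA damage response genes, 0 were counted in either direction and 10 had an unadjusted p under 0.05, against 32.0% of all genes. Cdkn1a, the p21 inhibitor that p53 induces, was at 2.56 and 3.02 against 2.87 and 3.15 (0.22, adjusted p = 0.537), and Trp53 itself at -2.32 and -2.21 against -1.48 and -1.29 (0.88, adjusted p = 0.0789). Both CD109+/+ arrays exceeded all untreated arrays in 14 of the 44 genes (31.8%, against 18.5% of all genes). Both CD109-/- arrays did so in 18 of 44 (40.9%, against 14.2%). Hras, the gene mutated in DMBA-induced tumours, was at 3.38 and 3.48 against 3.54 and 3.76 (0.22, adjusted p = 0.396).

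The antioxidant programme of Nrf2 leaned to the lower side in CD109-/- skin, with genes counted in both directions. Nfe2l2, which encodes Nrf2, was at 3.46 and 3.48 against 2.75 and 2.63 (-0.78, SE 0.15, adjusted p = 0.080). Among the 49 genes of the list, Nfe2l2 included, 3 were counted as lower. They were Gsta4 (-1.92, at 0.55 and 0.03 against -1.69 and -1.57), Akr1b8 (-1.72, at 4.73 and 4.44 against 3.02 and 2.72) and Hmox1, heme oxygenase 1 (-1.13). In the other direction Gpx2 (1.65) and Akr1c19 were counted. Akr1c19, an aldo-keto reductase, was at -8.23 and -6.34 in CD109+/+ skin, not above background, and at -2.67 and -3.71 in CD109-/- skin, at least 8.70-fold higher (adjusted p = 0.0789). On the untreated arrays it was at -3.87, -7.89, -2.30 and -5.36, so the CD109-/- arrays after DMBA lay within the range of all untreated arrays. They lay above the untreated arrays where the Cd109 signal was low (-7.89 and -5.36). The CD109+/+ arrays after DMBA lay below the untreated arrays where it was high (-3.87 and -2.30). The list had a median of -0.36, negative under each scaling, and 18 of 49 genes had an unadjusted p under 0.05, against 32.0% of all genes. In it 33 differences were negative and 16 positive. Groups did not overlap in 27 genes with CD109-/- skin lower (36.7% of all genes) and in 9 with it higher (35.7%).

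Proliferation genes were slightly higher in CD109-/- skin, with 27 of 29 differences positive (49.9% of all genes) and a median of 0.28. By the 2-fold rule 0 were counted, against 4.06% higher and 4.05% lower over all genes. An unadjusted p was under 0.05 in 9 of 29, against 32.0% of all genes. The median turned to -0.10 with median centring. Cenpf, a centromere protein, differed by 1.08 and Kif11, a spindle motor, by 1.01. The circadian clock (0 of 19 counted), sebaceous gland (0 of 19), erythroid cells (0 of 8) and EGF receptor, ligands and Ras (1 of 18, the ligand Epgn at -1.63) had median differences between -0.18 and 0.29. Among immediate early genes only Egr1 was counted, at 1.27 and 1.62 against 3.34 and 4.11 (2.28, SE 0.33, adjusted p = 0.0715). Medians this near 0 have no firm sign: in 10 of the 36 lists the sign of the median depended on the scaling, and in 26, all hair shaft, root sheath, matrix, melanocyte, chemokine, cytokine, neutrophil, macrophage, interferon, activated epidermis and metalloproteinase lists among them, it did not.

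Muscle, fat and fibroblasts are tissues whose share could differ with the piece of skin taken. Each list had 1 or 2 genes counted as lower, against 4.05% of all genes, and 0 or 1 as higher, against 4.06%. Groups did not overlap, with CD109-/- skin lower, in 19 of 29 muscle, 13 of 19 adipocyte and 14 of 27 fibroblast genes (36.7% of all genes). With it higher the counts were 2, 1 and 3 (35.7%). Both CD109-/- arrays lay below all 4 untreated arrays in 9 of 19 adipocyte genes, 2 of 29 muscle and 3 of 27 fibroblast genes (12.3% of all genes). Of 29 skeletal muscle genes 2 were counted as lower, Actn3 (-1.93) and Myh4, the fast fibre myosin, at 7.01 and 7.61 against 2.65 and -0.12 (-6.04, SE 1.01, adjusted p = 0.0756), with the untreated arrays at 5.26 to 7.29. The muscle list as a whole was at mean levels of 3.83 and 3.36 against 3.04 and 2.54, so Myh4 stood apart from it. Adipocyte genes had a median of -0.86 with 1 of 19 counted as lower (Lep, -1.82), and fibroblast and collagen genes a median of -0.56 with 1 lower (Crabp1, at 1.95 and 1.86 against -0.16 and -0.51, -2.24) and 1 higher (Col7a1, the anchoring fibril collagen, 1.32) of 27. Endothelial and pericyte genes had a median of -0.99 with 5 of 22 counted as lower, Pecam1 (-1.34, adjusted p = 0.0735) and the leukocyte adhesion receptor Sele (-1.93) among them. The mean levels of the adipocyte list were 3.79 and 3.72 against 3.41 and 2.78, and of the endothelial list 0.53 and 0.28 against -0.25 and -0.71. The part of tissue composition in the inflammatory and follicle differences was not tested.

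Iron genes, which macrophages and other skin cells use, leaned to the lower side, with genes counted in both directions. Slc11a1, a metal transporter of macrophage phagosomes, differed by -2.32 and Trf, transferrin, by -1.57, while Slc40a1, the iron exporter, was higher by 1.92, at 0.66 and 0.56 against 1.87 and 3.19. Over 14 such genes 3 were counted as lower and 1 as higher. In this list 11 differences were negative and 3 positive, and the median was -0.75, negative under each scaling. Groups did not overlap in 8 genes with CD109-/- skin lower (36.7% of all genes) and in 3 with it higher (35.7%).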

How the data were processed

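Total RNA from whole mouse skin was labelled with Cy3 and read with Agilent Feature Extraction 11.5.1.1. The authors deposited 1 scanner file per array, whose intensity is on a linear scale, background-subtracted and corrected for trends within the array but not normalized between arrays, and a value table that holds the same values scaled by a factor of its own for each array. The file headers name build mm9 for the probes, whose sequences were not used here.

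Control spots were left out, flagged spots were dropped and the other spots of a probe were averaged. This left 55604 of 55681 probes, as 77 had no unflagged spot on an array. Intensities were converted to log2 and the log2 75th percentile of the array was subtracted. Probes that the scanner software marked as well above background on both DMBA arrays of either genotype were tested (36520). RefSeq accessions named 28020 of 29796 probes (94.0%) and 21150 genes, and the brightest tested probe stood for a gene; in 6 genes 2 probes were counted in opposite directions. limma 3.58.1 in R 4.3.3 compared the DMBA arrays, with Benjamini-Hochberg adjustment over all tested probes, without covariates. All p-values beside genes are from this fit, in which 2 arrays per group limit the precision. Where 1 genotype was in the background, the fold is a lower bound that takes, in its place, the dimmest signal that any probe well above background had on the same arrays. Of the genes named, Cxcl2, Mmp9, Mmp12, Osm and Sele were well above background on only 1 CD109-/- array, and Il17f and S100a7a on only 1 CD109+/+ array. Promoters were matched to 13178 tested genes by symbol. The fit was also run on simulated data with an equal spread in both genotypes, unlike these arrays. That run does not show how the test behaves here.

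The comparison, gene lists and naming rule were chosen with earlier results of these data known. The rule names Cd109 and the genes the study names from its arrays, the 15 highest and 15 lowest genes with at most 2 of a family, 2 members per list with the smallest p where none passed, and 8 fixed genes; other list members named were chosen after their values were seen, and some genes are not reported here. Alternatives were other normalizations, centring, background correction, filters, variance models, the methods' t-test, all 8 arrays, a replicate block, the value table, a mean over the probes of a gene, and leaving out each array; dropping every probe with a flagged spot was added after seeing the data. No column of another series was used. The assays of the study other than the arrays were not analysed here.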

Additional observations from a re-analysis of the deposited data

How the results depend on the processing

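The 159 genes named in the text or by the naming rule with a difference of 1 or more kept their direction under every alternative in which they were tested; the number that pass did not keep its value. Against 0 of 36520 probes, 79 passed with quantile normalization, 1345 with each array centred on its median, 3529 with a normexp background correction, 29 in a fit of all 8 arrays as labelled, 1101 with a variance trend in limma, 118 of 16664 genes with the mean of the probes of a gene and 6895 with the methods' t-test unadjusted. Again 0 passed with every dim probe kept, with probes above background on all 4 arrays only, with a robust prior, the deposited value table, every flagged probe dropped, and the methods' t-test adjusted. Leaving out each array gave 0 to 10258, the highest without CD109-/- replicate 1 and 261 without CD109-/- replicate 2; the lone array of a genotype was then assumed to vary like the other group. The replicate numbers did not pair the samples, as the correlation of their deviations was -0.078, and with the replicate number as a block 0 passed and 10298 had an unadjusted p under 0.05.

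Genes counted as higher were 399 with median centring and 297 with normexp, and 954 to 2000 when 1 array was left out; genes counted as lower were 1224, 423 and 819 to 1997 in the same order. The cause of these shifts was not tested. Among genes with small differences, median centring turned Cdkn1a to -0.16, Hras to -0.16, Wnt10a to -0.27, Rspo4 to -0.25 and Vcan to -0.30, quantile normalization turned Rspo4 to -0.13, normexp turned Csf2 to 0.077, and the mean of its probes turned Cdkn1a to -0.29. When 1 array was left out, Cdkn1a ranged from -0.0098 to 0.45 (lowest without CD109+/+ replicate 1), Csf2 from -1.14 to 0.32 and S100a8 from -2.01 to 0.11 (both highest without CD109-/- replicate 2), Wnt10a from -0.056 to 0.27 (lowest without CD109+/+ replicate 1), Rspo4 from -0.028 to 0.29 (lowest without CD109-/- replicate 2) and Vcan from -0.022 to 0.18 (lowest without CD109-/- replicate 1).

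With 2 arrays per group, a gene that did not pass is not shown to be alike in both genotypes. Signals under the lowest value well above background, -6.40 to -6.28 on the CD109+/+ and -5.92 to -5.56 on the CD109-/- arrays, have no order among themselves.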
